A study of Mus musculus with 6 samples.

Results

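The Hox genes of reprogramming mouse fibroblasts are described here, as the 39 protein-coding genes whose mouse symbol is Hox, a cluster letter from a to d and a number, out of 54331 gene identifiers in the table. The cells were mouse embryonic fibroblasts (MEFs) from male E13.5 embryos, of a mixed C57BL/6, DBA/2 and ICR background, carrying an Oct4-EGFP transgene, which places green fluorescent protein under *Oct4* control. Several embryos were mixed to make the MEFs. All cells were transduced with retroviruses for Oct4, Sox2 and Klf4 (OSK) and for AKT-MER, a fusion of AKT to a modified estrogen receptor (together OSKA). At 3 days post infection (dpi), 3 wells received 4-hydroxytamoxifen (4OHT) at 1 µM, which activates AKT-MER (OSKA + 4OHT), and 3 wells received the ethanol vehicle (OSKA − 4OHT). RNA was taken at 10 dpi, so both groups carry OSK and AKT-MER and differ in 4OHT. Cells without AKT-MER were not analysed here. The wells came from cells infected together, so p-values measure the spread between wells and not between embryos or infections.

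Hox genes encode homeodomain transcription factors that give cells their position along the head-to-tail axis and along the limb. They lie in clusters, and their order in a cluster follows the order of their expression along the body: low paralog numbers act anteriorly and high numbers act posteriorly, in the limb and in the urogenital region. Cultured fibroblasts keep a Hox pattern that reflects the site they came from, and Polycomb proteins hold Hox genes silent in pluripotent cells.

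In the GENCODE M21 annotation of GRCm38 the HoxA cluster lies on the minus strand of chromosome 6 and holds 11 members. HoxB (10 members) spans chr11:96194316-96368256, HoxC (9 members) chr15:102921103-103036852 and HoxD (9 members) chr2:74668310-74765142, all on the plus strand. The 60-codon homeobox was found in the transcripts of 39 of the 39 members, in 1 exon each. Homeoboxes of the same paralog number in different clusters were the most alike, with a median identity of 80.6% of bases over 42 pairs (67.2% to 93.9%), against 61.7% over 172 pairs within a cluster. Pairs that shared neither had a median of 60.6% (527 pairs). The homeoboxes of *Hoxa10* and *Hoxa11*, posterior HoxA genes on which the results below turn, are printed because they bear on which genes the reads can tell apart. Capitals mark codons 42 to 58, the DNA-recognition helix; the sequences are GENCODE transcript sequences, at chr6:52232554-52232733 and chr6:52243402-52243581, read on the minus strand.
Hoxa10 homeobox: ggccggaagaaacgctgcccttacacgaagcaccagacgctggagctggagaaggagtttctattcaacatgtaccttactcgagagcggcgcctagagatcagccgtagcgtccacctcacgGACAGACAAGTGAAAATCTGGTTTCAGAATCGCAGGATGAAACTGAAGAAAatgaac
Hoxa11 homeobox: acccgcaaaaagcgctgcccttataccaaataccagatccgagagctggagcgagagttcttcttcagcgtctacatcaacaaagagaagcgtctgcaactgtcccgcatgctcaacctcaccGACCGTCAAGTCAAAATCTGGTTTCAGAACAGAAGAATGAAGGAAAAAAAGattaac
*Hoxa10* and *Hoxa11* share 67.8% of these bases. Over whole transcripts, 1.02% of the 31-base words of *Hoxa9* and none of those of *Hoxa10* and *Hoxa11* occur in another gene on the same strand.

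The 250 bases before the start site were available from RefSeq (GRCm38.p6) for 22 members, in 24 windows. They held a median of 12.5 CG dinucleotides (2 to 35), against a median of 6 over 32851 windows of all genes. Those of *Hoxa9*, *Hoxa10* and *Hoxa11* are shown because the wells of these 3 neighbouring genes separated in the same direction. CG dinucleotides are in capitals, and the windows are chr6:52227371-52227620, chr6:52234940-52235189 and chr6:52245811-52246060, minus strand.
Hoxa9 promoter: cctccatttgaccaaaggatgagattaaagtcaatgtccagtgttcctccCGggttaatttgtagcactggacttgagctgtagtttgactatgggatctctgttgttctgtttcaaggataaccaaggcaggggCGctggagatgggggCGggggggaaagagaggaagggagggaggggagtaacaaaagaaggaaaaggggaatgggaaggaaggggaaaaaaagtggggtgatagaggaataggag
Hoxa10 promoter: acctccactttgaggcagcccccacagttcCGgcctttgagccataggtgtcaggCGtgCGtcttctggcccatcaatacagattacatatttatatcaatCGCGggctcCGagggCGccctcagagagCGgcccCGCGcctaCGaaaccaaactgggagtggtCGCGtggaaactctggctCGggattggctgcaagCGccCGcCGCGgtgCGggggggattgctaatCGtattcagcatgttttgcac
Hoxa11 promoter: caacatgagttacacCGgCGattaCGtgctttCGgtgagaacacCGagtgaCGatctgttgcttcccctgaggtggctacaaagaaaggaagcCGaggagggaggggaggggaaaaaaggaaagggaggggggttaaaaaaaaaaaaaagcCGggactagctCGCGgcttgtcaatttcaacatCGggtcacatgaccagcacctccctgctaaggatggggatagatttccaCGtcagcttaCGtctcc
*Hoxa9* has 3 CG dinucleotides in this window, *Hoxa10* has 20 and *Hoxa11* has 13. *Hoxa10* has a second start in RefSeq, whose window (chr6:52240855-52241104) holds 7. The *Hoxa11* window overlaps exons of the antisense gene *Hoxa11os*. The letters TGATTNAT, a site that Hox and Pbx proteins can bind together, were searched on both strands and occurred in 2 of the 24 Hox windows (*Hoxa2* and 1 *Hoxd11* window) and in 2.82% of all windows. The letters AGGTCA, the core site of retinoic acid receptors, occurred in 6 of the 24, those of *Hoxb4*, *Hoxc4*, *Hoxd3*, *Hoxd4*, *Hoxd8* and *Hoxd10*, and in 14% of all windows. Neither occurred in the windows of *Hoxa7*, *Hoxa9*, *Hoxa10* or *Hoxa11*.

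The table gives transcript levels corrected for length and scaled to a total of 1000000 in each well (TPM). No read totals come with it. Steps between low TPM values give a rough relative depth of 0.502 to 1 in OSKA − 4OHT and 0.787 to 0.92 in OSKA + 4OHT. Per well, 15814 to 18230 genes were above 0. Read numbers quoted for single genes are approximations from these steps. They take each gene's longest transcript and fragments of 250 bases, so they can be too high for genes with shorter transcripts. Each of 16 fibroblast markers was above 1 TPM in every well. Their summed level was 11210 to 12910 TPM in OSKA − 4OHT and 7182 to 8570 TPM in OSKA + 4OHT, with 6 of 16 lower and 2 higher at an adjusted p under 0.05. Of the other marker lists, 4 of 10 tested pluripotency genes and 3 of 12 epithelial genes were higher, and 1 of 11 macrophage genes was lower. Over all tested genes 5.49% passed in either direction. The part of these shifts in the Hox values was not tested, and in bulk RNA fewer cells of a type and less RNA per cell cannot be told apart.

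The cells held transcripts of nearly the whole family. Of the 39 members, 32 were above 0 in all 6 wells, 17 had a mean of at least 5 TPM and 9 had a mean of at least 10 TPM. *Hoxb13*, a gene of the tail end of the axis, was listed at 0 in every well. The highest levels lay in the middle and posterior parts of the clusters, where *Hoxa7*, *Hoxa9*, *Hoxa10*, *Hoxb9*, *Hoxc6*, *Hoxc8*, *Hoxc10* and *Hoxd13* were above 9 TPM in every well. Of the genes with paralog numbers 1 to 3, none had a group mean above 8 TPM. The order of the 39 mean levels was much the same in both groups (Spearman rho = 0.913 across genes, which are not independent replicates), and 9 of the 10 highest members of one group were among the 10 highest of the other.

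**Figure D1:**
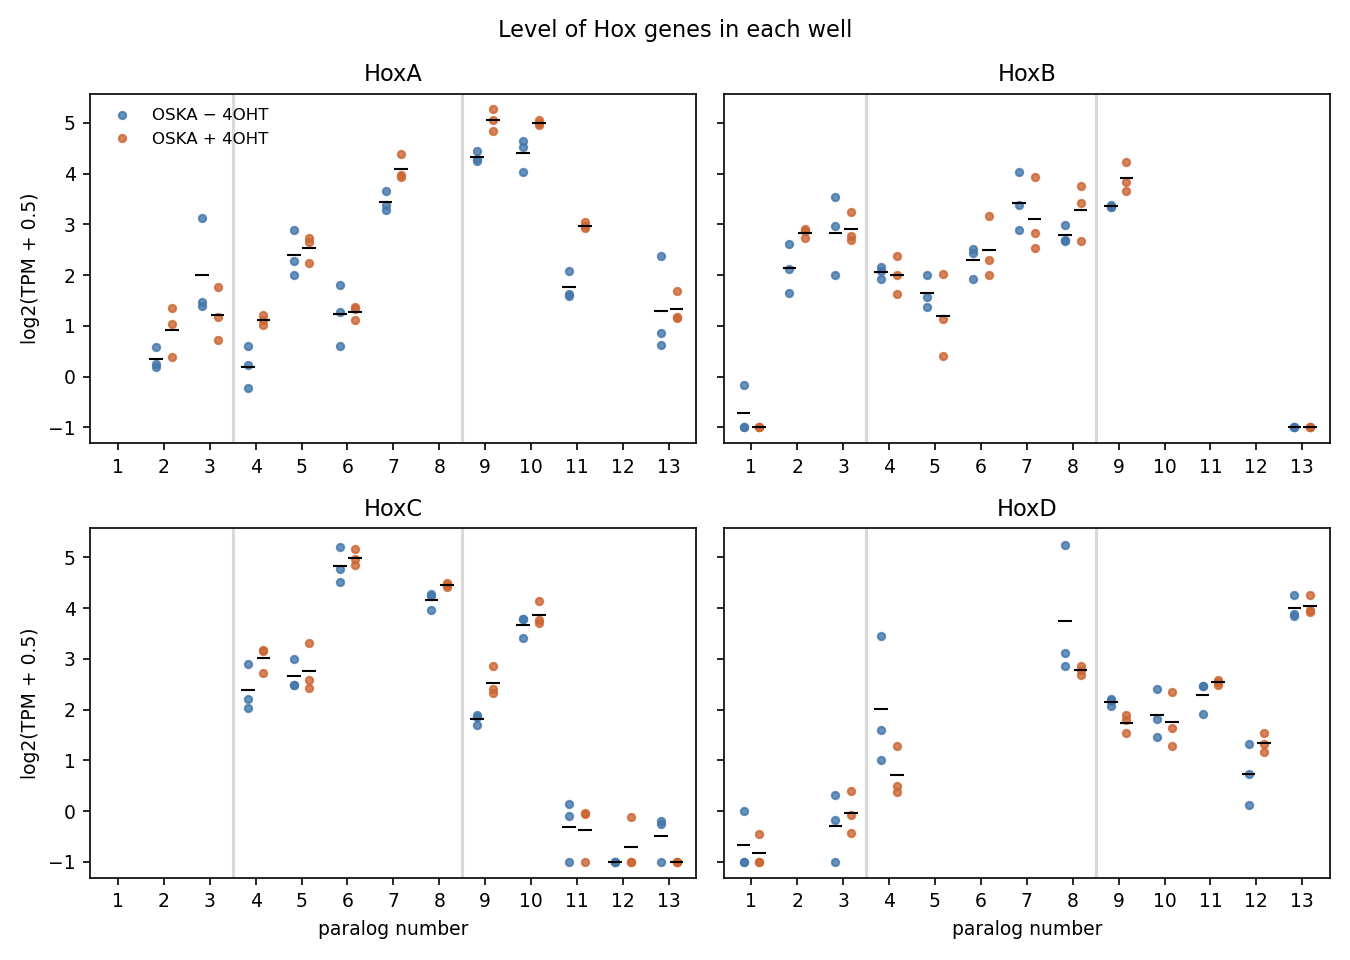
Level of the Hox genes in each well, as log2(TPM + 0.5), against paralog number in the 4 clusters; blue points are OSKA − 4OHT, orange points OSKA + 4OHT (n = 3 each), black bars the means of the log2 values, and grey lines divide paralogs 1–3, 4–8 and 9–13. The members at the lowest value on the axis are listed at 0 TPM, and *Hoxa9*, *Hoxa10* and *Hoxc6* are the highest.

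The first question was whether AKT activation changed any Hox gene at 10 dpi. No member passed the test. limma was run on log2(TPM + 0.5) over the 15382 genes whose mean over the 6 wells reached 1 TPM, with Benjamini-Hochberg adjustment over all of them, and 32 members entered it. It called 0 of the 32 at an adjusted p under 0.05, against 5.49% of all tested genes (542 higher and 303 lower in OSKA + 4OHT). The split of the calls over all genes was 64.1% higher, 45.6% higher when the wells were scaled by trimmed means (TMM), and 49.7% higher after quantile normalization. At an unadjusted p under 0.05 there were 6 members of 32, and 21.3% of all tested genes.

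The 6 were *Hoxa7*, *Hoxa9*, *Hoxa10*, *Hoxa11*, *Hoxb9* and *Hoxc9*, each with a higher level in OSKA + 4OHT. All 3 OSKA + 4OHT wells were above all 3 OSKA − 4OHT wells in 10 of the 32 tested members, against 18.1% of tested genes. The reverse held for *Hoxd9* alone, against 10% of tested genes. Here and below, whether the wells of single genes overlap was read from unscaled TPM and was not counted again with TMM scaling. The median log2 fold change of the 32 members was 0.20, beside 0.14 for all tested genes, and it was above 0 in 24 of 32 members, against 59.3% of tested genes. With TMM scaling, which moves the median of all genes by 0.15, the medians were 0.049 and -0.0098 and 18 of the 32 members were above 0. The 95% interval lay inside a 2-fold change in either direction for 8 of 32 members, against 32.9% of tested genes, so for the other members the interval reached a 2-fold change on at least one side. The interval included 0 for 26 members.

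**Figure D2:**
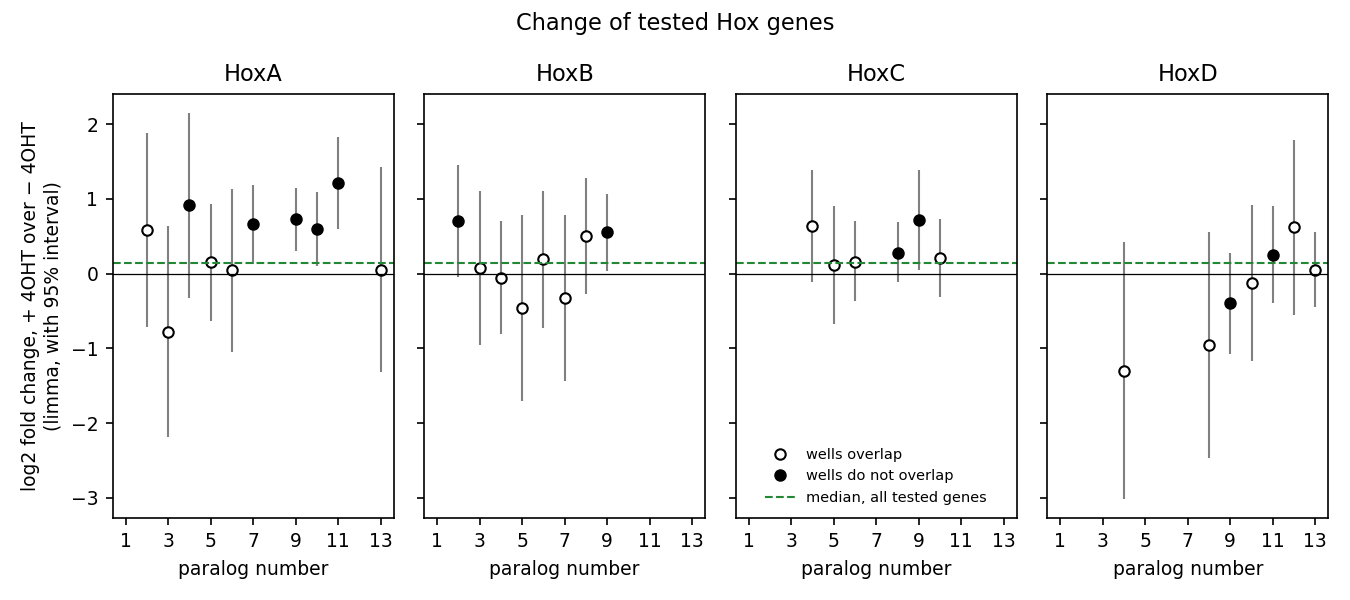
Log2 fold change (OSKA + 4OHT over OSKA − 4OHT, limma) with its 95% interval for tested Hox genes, against paralog number in each cluster; filled points are genes whose wells did not overlap between groups and the dashed line is the median of all 15382 tested genes (0.14). *Hoxa7*, *Hoxa9*, *Hoxa10* and *Hoxa11* lie above the dashed line with intervals clear of 0, and *Hoxd4* and *Hoxd8* have the lowest values with wide intervals.

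The HoxA cluster had the largest ratio of summed levels of the 4 clusters, and most of the difference lay in *Hoxa7* and its posterior neighbours. *Hoxa9*, a posterior gene also known as a driver of leukaemic self-renewal, stood at 18.9, 18.6 and 21.4 TPM in the OSKA − 4OHT wells and at 28.2, 32.6 and 37.9 TPM in the OSKA + 4OHT wells. The groups did not overlap, and the means were 19.6 ± 1.53 and 32.9 ± 4.84 TPM (SD, n = 3). Its log2 fold change was 0.73 (95% interval 0.30 to 1.15; limma, adjusted p = 0.0713, 0.0565 to 0.176 over the alternatives).

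*Hoxa11*, which patterns the middle limb segment and the uterus, had the highest log2 fold change of the tested members. It stood at 3.71, 2.60 and 2.50 TPM without 4OHT and at 7.07, 7.28 and 7.72 TPM with it, about 5 to 9 reads against about 21 to 23 reads. The log2 fold change was 1.21 (0.59 to 1.83), just outside the threshold (limma, adjusted p = 0.0512, 0.0382 to 0.157 over the alternatives), and of the alternatives run it passed only the one that left the variance trend out of the fit. Of its 31-base words, 33.9% lie opposite to *Hoxa11os*. That antisense RNA stood at 5.73, 7.45 and 11.2 TPM and at 9.75, 10.9 and 12.3 TPM (log2 fold change 0.46, limma adjusted p = 0.415). The libraries were stranded, but whether strand was used in quantification is not given in the sources used here, so reads of the 2 genes may not be told apart.

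*Hoxa10*, a posterior gene of the limb and uterus, stood at 24.6, 15.9 and 22.6 TPM in OSKA − 4OHT and at 31.3, 30.4 and 32.8 TPM in OSKA + 4OHT. The groups did not overlap, and the log2 fold change was 0.60 (0.098 to 1.09; limma, adjusted p = 0.166). *Hoxa7*, a gene of the trunk, gave 12.0, 9.26 and 9.86 TPM against 15.1, 14.7 and 20.4 TPM (log2 fold change 0.66, limma adjusted p = 0.151). Its groups did not overlap either, and 19.6% of its 31-base words lie opposite to another gene, nearly all of them to *Hoxaas3*. These 4 genes summed to 53.9 ± 6.78 TPM without 4OHT and to 88.5 ± 9.04 TPM with it, a ratio of 1.64.

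The other HoxA members differed less or varied more between wells. *Hoxa4*, a gene of the neck and upper trunk, was the only member at or under about 3 reads in every well of one group and above that in every well of the other, at 1.01, 0.664 and 0.359 TPM against 1.66, 1.51 and 1.80 TPM. Those OSKA + 4OHT levels are only 3.11 to 3.25 reads, and the adjusted p was 0.372 (limma). *Hoxa3*, which acts in the pharynx and thymus, had 8.17 TPM in OSKA − 4OHT replicate 2 and 1.14 to 2.90 TPM in the other 5 wells (log2 fold change -0.78, limma adjusted p = 0.515). *Hoxa2*, *Hoxa5*, *Hoxa6* and *Hoxa13* overlapped between groups, with log2 fold changes of 0.042 to 0.58, and those of *Hoxa5*, *Hoxa6* and *Hoxa13* were below 0 with TMM scaling. The wells held only about 0.625 to 2.01 reads of *Hoxa6* and about 0.87 to 4.75 reads of *Hoxa2*. The whole cluster summed to 75.6, 65.4 and 70.1 TPM and to 100, 104.9 and 111.6 TPM, a ratio of 1.5 (1.35 with TMM scaling, 1.43 without its highest member *Hoxa9*). Of its 11 members, 10 had a log2 fold change above 0, and 7 with TMM scaling.

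**Figure D3:**
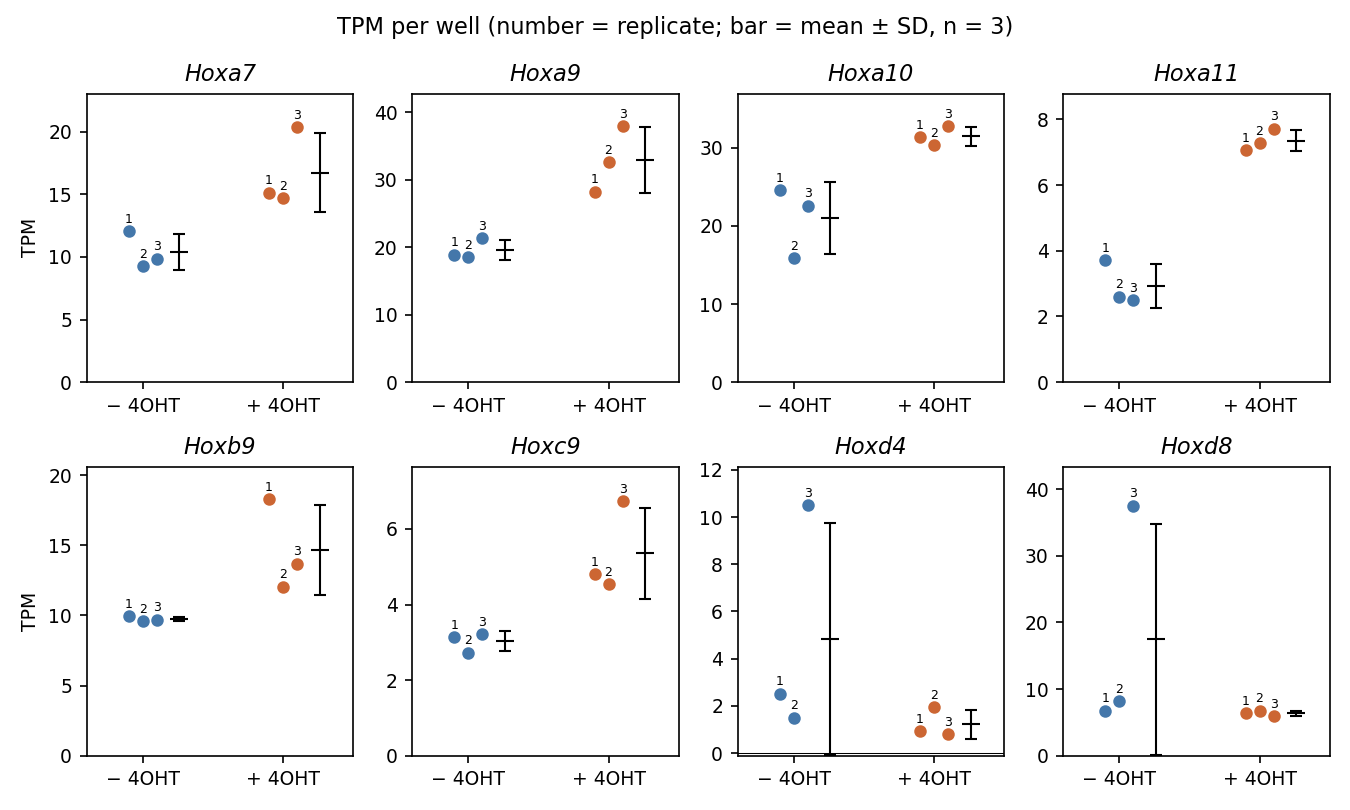
TPM per well of *Hoxa7*, *Hoxa9*, *Hoxa10*, *Hoxa11*, *Hoxb9*, *Hoxc9*, *Hoxd4* and *Hoxd8*; points are wells numbered by replicate, and bars are mean ± SD (n = 3). The first 6 genes have no overlap between OSKA − 4OHT (blue) and OSKA + 4OHT (orange), while *Hoxd4* and *Hoxd8* are high in OSKA − 4OHT replicate 3 only.

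In HoxB the summed level was 46.7, 46.8 and 54.4 TPM without 4OHT and 53.6, 54.8 and 65.6 TPM with it, so the groups overlapped (ratio 1.18). The overlap lay between OSKA − 4OHT replicate 3 and OSKA + 4OHT replicate 1: without the former the ratio was 1.24, without the latter 1.22, and the remaining OSKA + 4OHT wells were then all higher. With TMM scaling it was 1.06 and the wells overlapped. *Hoxb9*, the most posterior HoxB gene found, stood at 9.93, 9.61 and 9.69 TPM against 18.3, 12.1 and 13.7 TPM. Its OSKA − 4OHT wells were close together and all lay below the OSKA + 4OHT wells (log2 fold change 0.55, 0.028 to 1.06; limma, adjusted p = 0.214). *Hoxb2*, a hindbrain gene, also did not overlap, at 2.65, 3.87 and 5.59 TPM against 7.01, 6.80 and 6.09 TPM (log2 fold change 0.70, limma adjusted p = 0.262), and 26.5% of its 31-base words lie opposite to *Hoxb3os*.

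The other well-expressed HoxB genes overlapped. *Hoxb7*, a trunk gene, gave 9.93, 6.86 and 15.7 TPM against 6.63, 5.26 and 14.8 TPM, with the highest well of each group near 15 TPM. *Hoxb8*, which is used to immortalise myeloid progenitors, gave 5.93, 5.91 and 7.46 TPM against 5.89, 10.3 and 12.9 TPM. Their log2 fold changes were -0.33 and 0.50 (limma, adjusted p = 0.722 and 0.444). *Hoxb3*, *Hoxb4*, *Hoxb5* and *Hoxb6* had log2 fold changes of -0.46 to 0.19. Of the 31-base words of *Hoxb3*, 52.6% lie opposite to another gene, nearly all of them to *Hoxb3os*. *Hoxb1*, the hindbrain gene at the anterior end, was above 0 in 1 well, OSKA − 4OHT replicate 2 (0.397 TPM, about 1 read).

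HoxC was carried by *Hoxc6*, *Hoxc8* and *Hoxc10*. *Hoxc6*, a gene of the thorax, stood at 22.4, 36.4 and 26.6 TPM against 30.9, 28.1 and 35.3 TPM. Its OSKA + 4OHT wells lay inside the range of the OSKA − 4OHT wells (log2 fold change 0.16, -0.37 to 0.70). *Hoxc8*, also thoracic, gave 15.1, 18.5 and 18.9 TPM against 22.0, 21.4 and 20.7 TPM. Its groups did not overlap in unscaled TPM, but the difference was small (log2 fold change 0.28, -0.12 to 0.69, limma adjusted p = 0.399). With TMM scaling the log2 fold change was 0.13. *Hoxc10*, a gene of the lumbar region and hindlimb, overlapped, at 13.2, 10.1 and 13.3 TPM against 17.1, 13.1 and 12.6 TPM (log2 fold change 0.21, -0.31 to 0.73).

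*Hoxc9*, a gene of the lower thorax, was lower in level but differed more, at 3.14, 2.72 and 3.22 TPM against 4.80, 4.54 and 6.74 TPM. The groups did not overlap (log2 fold change 0.72, 0.042 to 1.39; limma, adjusted p = 0.211). *Hoxc4* and *Hoxc5*, the anterior end of this cluster, had log2 fold changes of 0.64 and 0.11 with overlapping wells. All 6 tested HoxC genes had a log2 fold change above 0, and 5 with TMM scaling. *Hoxc11*, *Hoxc12* and *Hoxc13*, the most posterior genes, reached at most 0.597 TPM in any well, under about 2 reads, and were not tested. The cluster summed to 66.7, 77.4 and 73.7 TPM and to 86.1, 81.5 and 93.7 TPM (ratio 1.20), without overlap. With TMM scaling the ratio was 1.08 and the wells overlapped.

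HoxD was the only cluster with a lower summed level in OSKA + 4OHT, and most of that difference came from a single well. *Hoxd8*, a trunk gene, stood at 6.74, 8.15 and 37.5 TPM without 4OHT and at 6.38, 6.76 and 5.96 TPM with it. OSKA − 4OHT replicate 3 stood far above the other 5 wells, with about 87 reads if all came from the longest transcript of this gene. *Hoxd4*, a gene of the neck, was high in the same well, at 2.52, 1.5 and 10.5 TPM against 0.914, 1.93 and 0.799 TPM. The log2 fold changes were -0.96 and -1.30 (limma, adjusted p = 0.444 and 0.358). Without that well they were -0.21 and -0.58 (adjusted p = 0.649 and 0.531). Of the 31-base words of *Hoxd4*, 49.1% also occur in another gene on the same strand, mainly *Gm28230* and *Hoxd3*. *Hoxd8* shares 0.073% of its words.

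The rest of HoxD was close to level in its sum, with members in both directions. *Hoxd13*, which shapes the digits and is the most posterior HoxD gene, had 14.3, 18.7 and 13.8 TPM against 14.7, 18.7 and 15.1 TPM (log2 fold change 0.052, -0.45 to 0.55, and -0.10 with TMM scaling). *Hoxd11*, a gene of the forearm, gave 3.28, 5.06 and 5.06 TPM against 5.49, 5.36 and 5.10 TPM, without overlap in unscaled TPM. Its log2 fold change was only 0.25 (-0.40 to 0.90), and 0.096 with TMM scaling. *Hoxd9*, a gene of the limb and lower trunk, was the one member whose OSKA + 4OHT wells were all lower, at 3.69, 4.01 and 4.10 TPM against 3.19, 2.99 and 2.43 TPM (log2 fold change -0.40, limma adjusted p = 0.475). *Hoxd10* and *Hoxd12* had log2 fold changes of -0.13 and 0.62 with overlapping wells. *Hoxd1* and *Hoxd3* had means under 1 TPM and were not tested. The cluster summed to 35.2, 42.1 and 77.1 TPM against 37.7, 41.1 and 34.0 TPM, a ratio of 0.731. It was 0.974 without OSKA − 4OHT replicate 3, and 1.03 without *Hoxd4* and *Hoxd8*. With TMM scaling the ratio was 0.657, with all OSKA + 4OHT wells below the others, and 0.872 without that replicate.

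The second question was whether the difference followed position in the cluster. Members with paralog numbers 9 to 13 summed to 104.4, 93.8 and 102.1 TPM in OSKA − 4OHT and to 139.0, 134.4 and 140.6 TPM in OSKA + 4OHT, a ratio of 1.38 with no overlap (1.24 with TMM scaling, also without overlap). Numbers 4 to 8 summed to 125.1 ± 29.4 and 129.9 ± 16.1 TPM (ratio 1.04), and numbers 1 to 3 to 18.5 ± 6.99 and 20.3 ± 4.12 TPM (ratio 1.1, and 0.981 with TMM scaling), both with overlapping wells. The central ratio turned on OSKA − 4OHT replicate 3, the well in which *Hoxd4* and *Hoxd8* were high. Without that well it was 1.2, with 105.2 and 111.3 TPM against 118.1, 123.5 and 148.2 TPM and no overlap. With TMM scaling it was 0.94 over all wells and 1.08 without that well, and the wells overlapped in both. Without *Hoxd4* and *Hoxd8* the central ratio was 1.19. The anterior ratio turned on OSKA − 4OHT replicate 2. Without that well it was 1.4, with 14.7 and 14.3 TPM against 20.4, 24.4 and 16.1 TPM and no overlap, beside a posterior ratio of 1.34. With TMM scaling and without that well the values were 1.24 and 1.19, so the order of the anterior and posterior ratios rests on 1 well. Of the 16 posterior members 12 were tested, and 6 of these had wells that did not overlap and were higher in OSKA + 4OHT, against 3 of 15 central and 1 of 5 anterior members; over all tested genes the share was 18.1%, and whether the classes differ was not tested. By cluster, the ratio of the posterior sum was 1.61 in HoxA, 1.51 in HoxB (*Hoxb9* alone), 1.27 in HoxC and 1.03 in HoxD. As a share of all Hox transcripts, the posterior genes were 37.1% to 46.5% in OSKA − 4OHT and 46.1% to 50.1% in OSKA + 4OHT, which overlap. HoxA had 25.5% to 33.7% and 36% to 37.1%, which do not. The family as a whole summed to 243.7 ± 27.6 and 288.2 ± 14.7 TPM (n = 3), a ratio of 1.18. The sums are descriptions and carry no p-value, and the smallest that a two-sided exact permutation test of 3 wells against 3 can give is 0.1.

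**Figure D4:**
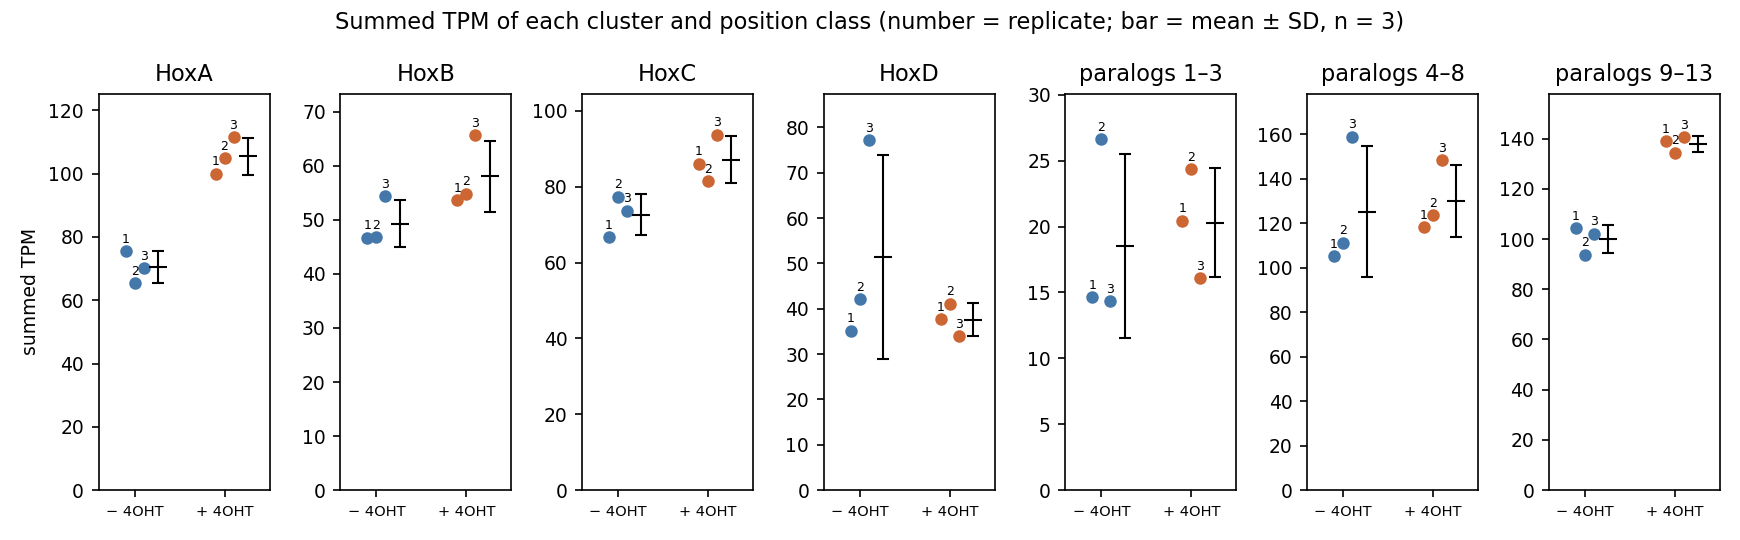
Summed TPM of the members of each cluster and of each position class in every well (points, numbered by replicate) with mean ± SD (n = 3). HoxA, HoxC and paralogs 9–13 have all OSKA + 4OHT wells (orange) above all OSKA − 4OHT wells (blue), and in HoxD the highest well is OSKA − 4OHT replicate 3. With TMM scaling, which is not drawn, the HoxC wells overlap.

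Hox proteins bind DNA with partners of the TALE class, the Pbx, Meis and Pknox (Prep) proteins. All 9 of these genes were tested and none was called, against 5.49% of all tested genes. Their median log2 fold change was 0.43, beside 0.14 for all tested genes. *Pknox2* was higher in all OSKA + 4OHT wells, at 1.91, 2.44 and 1.24 TPM against 5.90, 12.9 and 5.03 TPM (log2 fold change 1.76; limma, adjusted p = 0.0743). *Meis2*, the partner with the highest mean level, spread from 32.1 to 104.9 TPM among OSKA − 4OHT wells and from 89.8 to 100.4 TPM among OSKA + 4OHT wells. *Pbx2*, *Pbx3*, *Pbx4*, *Meis1*, *Meis3* and *Pknox1* overlapped between groups, with log2 fold changes of -0.37 to 0.52.

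The genes that keep Hox clusters open or silent were also described. Of 18 Polycomb core genes tested, none was called, against 5.49% of all tested genes. Their median log2 fold change was 0.26, beside 0.14 for all tested genes. The wells did not overlap in 7, of which 5 were higher in OSKA + 4OHT (against 18.1% of tested genes) and 2 lower (against 10%). The members named here were chosen after their values were seen. *Ezh1*, a histone H3K27 methyltransferase, was at 19.1, 23.8 and 28.3 TPM without 4OHT and at 14.3, 9.66 and 9.62 TPM with it (log2 fold change -1.06). Its adjusted p was 0.0641 (limma), and 0.0353 to 0.2 over the alternatives, so *Ezh1* was called in at least 1 of them. *Ezh2*, the other enzyme for that mark, and its partner *Suz12* lay the other way, with log2 fold changes of 0.85 and 0.49 (limma, adjusted p = 0.214 and 0.1). *Rnf2* and *Phc1* were also higher, at 0.73 and 0.67, and *Phc3* lower, at -0.49 (limma, adjusted p = 0.152, 0.161 and 0.196). *Cbx7*, a reader of H3K27 methylation, was at 1.96, 2.16 and 2.18 TPM against 7.86, 4.76 and 5.03 TPM (log2 fold change 1.26; limma, adjusted p = 0.0708, and 0.0507 to 0.18 over the alternatives). Of 13 trithorax, H3K27 demethylase and caudal genes, 10 were tested and none was called, again against 5.49% (median 0.19, beside 0.14). The caudal genes *Cdx2* and *Cdx4*, activators of posterior Hox genes in the embryo, were listed at 0 in every well. In the retinoic acid pathway, which activates anterior Hox genes, 1 of 13 tested genes was called, against 5.49% of all tested genes. *Crabp2*, the protein that carries retinoic acid to its receptors, rose from 219.1, 183.2 and 198.3 TPM to 711.5, 720.1 and 748.4 TPM (log2 fold change 1.86, 1.60 to 2.12; limma, adjusted p = 0.00305, and 0.00207 to 0.0499 over the alternatives).

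Among 30 tested transcription factors of the limb, face and body wall other than Hox, 2 were called higher and 1 lower, against 5.49% of all tested genes in either direction (median log2 fold change 0.0013). *Nr2f1* (COUP-TFI), a gene of the anterior nervous system and of mesenchyme, fell from 26.9, 21.4 and 24.5 TPM to 3.10, 3.61 and 2.43 TPM (log2 fold change -2.81, -3.35 to -2.27; limma, adjusted p = 0.00369, and 0.00239 to 0.0555 over the alternatives). *Foxd1*, a stromal gene, rose from 9.81, 9.84 and 7.70 TPM to 24.0, 23.8 and 16.3 TPM (log2 fold change 1.17; limma, adjusted p = 0.0416). That call was lost under several alternatives (adjusted p of 0.0333 to 0.152), among them the fit without OSKA − 4OHT replicate 3 (0.108). Whether this list differs from the Hox members was not tested.

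**Figure D5:**
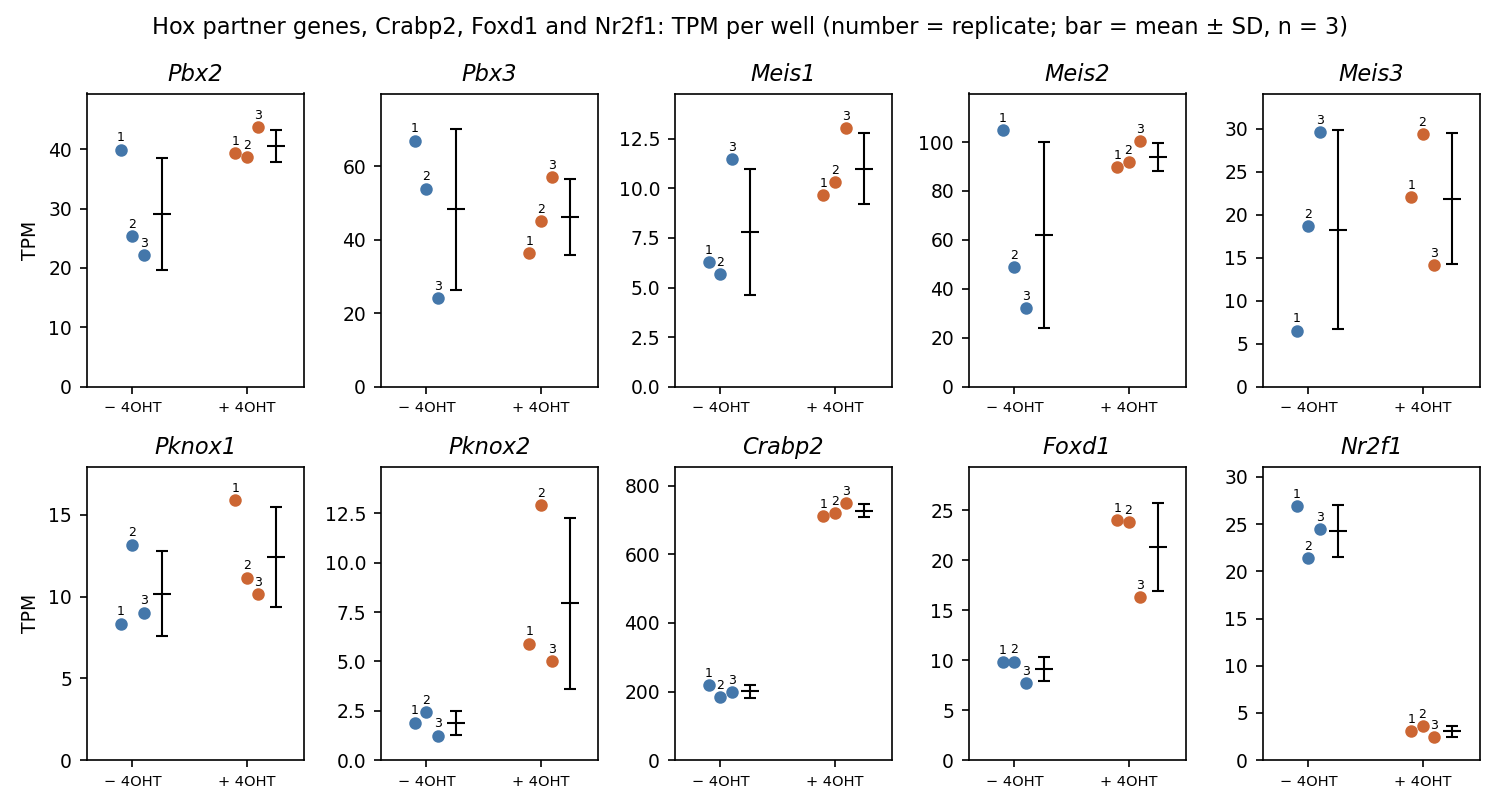
TPM per well (points, numbered by replicate) with mean ± SD (n = 3) of *Pbx2*, *Pbx3*, *Meis1*, *Meis2*, *Meis3*, *Pknox1*, *Pknox2*, *Crabp2*, *Foxd1* and *Nr2f1*. *Pknox2* lies higher in all OSKA + 4OHT wells (orange), and *Crabp2* and *Nr2f1* separate by far more than the spread between wells.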

How the data were processed

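Stranded poly(A) libraries of 6 wells were sequenced as 50-bp single-end reads. The authors trimmed them with Trim Galore and quantified them with Salmon against the mouse reference transcriptome (versions, annotation and build are not given in the sources used here). The authors deposited TPM per gene and well, without read counts; the table also holds the authors' own comparison (log fold change, average level, test statistic and p-value), which was not used. Symbols came from GENCODE M21, which matched 54097 of 54331 identifiers.

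TPM were compared with limma 3.58.1 (R 4.3.3) on log2(TPM + 0.5), with eBayes and a variance trend, over genes whose mean reached 1 TPM, and Benjamini-Hochberg adjusted. Fold changes on this scale understate those of low genes. The study's count test was not used, since the values are not counts. The fit was tested on simulated data, and no result of that test is given here.

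Relative depth was estimated from the steps between low TPM values, with the step chosen to bring them closest to whole numbers. At that step 37.1% to 41.7% of them lay within 0.15 reads of a whole number. Even spacing gives 30% at a step fixed beforehand and can give more at a chosen one. The share therefore does not test the estimate, which is rough. Words of 31 bases, shared between genes, and sequences were read from the GENCODE and RefSeq files with Python 3.11.15.

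Described with values were members with an unadjusted p under 0.05, the 3 highest per cluster and those at or under about 3 reads in one whole group only; *Hoxa3*, *Hoxb2*, *Hoxd4* and *Hoxd9* were added after their values were seen. Listed non-members were named where their adjusted p was under 0.05, and Pbx, Meis and Pknox genes in any case; some of the genes and sequences that these rules name are not reported here. The members, gene lists and marker lists were chosen with earlier results of these data known. Alternatives were pseudocounts of 0.1, 1 and 2, no filter and a stricter one at 5 TPM, TMM scaling, quantile normalization, other variance models, a replicate block and leaving out each well.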

Additional observations from a re-analysis of the deposited data

How the results depend on the processing

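No Hox gene was called in the fits with other pseudocounts, filters, scalings, a robust variance model, a replicate block or any well left out; without the variance trend 1 was called (*Hoxa11*, limma adjusted p = 0.0382, with a range of 0.0382 to 0.157 over all alternatives). The median log2 fold change of the Hox genes was 0.049 with TMM scaling and 0.023 after quantile normalization, and 0.20 to 0.33 with one well left out. The HoxA ratio was 1.35 with TMM scaling. The alternatives for the sums by position were chosen after seeing the data. For the 15 members of the naming rule, 232 of 237 values under the alternatives kept their direction and 5 were reversed. All 5 were of *Hoxd13*, at -0.10 with TMM scaling, -0.11 after quantile normalization and -0.055 to 0.18 over the fits with one well left out. The filters, variance models and replicate block leave a gene's fold change as it is, so they could not reverse it. Some of the 15 were also named for their p-value in the main fit, so this count does not measure robustness. Of all 32 tested members, 10 changed direction under at least 1 alternative, 6 of them with TMM scaling: *Hoxa5*, *Hoxa6*, *Hoxa13*, *Hoxb3*, *Hoxc5* and *Hoxd13*. The cause was not tested.

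Over all genes, 205 to 505 were called with one well left out (205 without OSKA + 4OHT replicate 1), where fewer wells are compared. The labels number the wells 1 to 3 in each group. Deviations of same-numbered wells correlated at 0.024, 0.034 and 0.084, so the numbers were not taken as pairs; with the replicate block 47 genes were called in all and 0 Hox genes. The depth of these libraries limits what could be told for the lower members. It gave a few reads or fewer for *Hoxa2*, *Hoxa4* and *Hoxa6*, and about 5 to 9 reads for *Hoxa11* in OSKA − 4OHT.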

Other observations

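Genes that share the Hox neighbourhoods but are not members gave a mixed picture. Of 23 listed genes next to the clusters 19 were tested, and 2 were called, both higher in OSKA + 4OHT, against 5.49% of all tested genes in either direction. *Calcoco2*, an autophagy receptor gene beside HoxB, was at 0, 0.605 and 0.591 TPM in OSKA − 4OHT and at 15.7, 13.4 and 17.7 TPM in OSKA + 4OHT (limma, adjusted p = 0.00546, and 0.00389 to 0.0574 over the alternatives). *Snx10*, a sorting nexin gene beside HoxA, rose from 27.1, 29.7 and 33.2 TPM to 77.4, 73.6 and 54.2 TPM (log2 fold change 1.16; limma, adjusted p = 0.0246, and 0.0189 to 0.119 over the alternatives, so that the call was lost in some, with 0.0624 without OSKA − 4OHT replicate 3).

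Another 46 annotated genes lie inside or reach into the spans of the clusters, and 14 of them were tested. None of these 14 was called, against 5.49% of all tested genes. Of the 46, 24 were listed at 0 in every well, among them all 7 inside HoxC. *Hotairm1*, a noncoding RNA of the HoxA cluster, chosen here after its values were seen, spread widely at 46.4, 7.24 and 2.92 TPM against 47.5, 83.1 and 26.9 TPM (log2 fold change 2.16; limma, adjusted p = 0.267). Some of these genes overlap members, and their levels and those of the members are then not independent.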
